A study of Homo sapiens with 6 samples.

Results

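The genes described here are 10 regulators at the output end of the ERK MAP kinase pathway: the PEA3 transcription factors ETV1, ETV4 and ETV5, the Sprouty proteins SPRY1, SPRY2 and SPRY4, the Sprouty-related proteins SPRED1 and SPRED2, and the MAP kinase phosphatases DUSP4 and DUSP6. They were taken by symbol from the 23686 genes counted in each library, and all 10 had enough reads to be among the 14582 genes tested. The set was chosen by the rise of ETV4 in the comparison reported below, and its relatives and the ERK brakes were added with that result known. The fold changes and calls of the 10 genes therefore describe these libraries, and no p-value is given for them.

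In this pathway, growth factor receptors activate RAS, which activates RAF, MEK and ERK in turn. Active ERK switches on a set of genes that includes its own brakes. Sprouty and SPRED proteins act between the receptors and RAF, DUSP4 and DUSP6 remove phosphate from ERK itself, and the PEA3 factors are DNA-binding ETS proteins whose genes are widely read as a sign of ERK output.

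The samples were 6 libraries of HEK293, a long-established cell line from human embryonic kidney, all from GFP-positive cells collected by fluorescence-activated sorting. In the ROS co-culture group, 3 libraries came from GFP-positive cells grown beside HEK293 cells that carry DAAO and produce reactive oxygen species (ROS), with 25 µM D-alanine for 10 h. The letters DAAO commonly stand for the oxidase of D-amino acids, an enzyme whose reaction yields hydrogen peroxide. The control group held 3 libraries of GFP-positive cells titled Wt controls, sorted in the same way. The same treatment text stands with all 6 samples, so it is not known from it whether the controls received D-alanine or a partner cell. The labels name neither a clone nor the promoter behind GFP or DAAO, and they do not say that the replicates were separate cultures, so the tests measure the spread between these libraries only.

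The libraries held between 19091085 and 36250314 reads assigned to genes. All 7 HEK293 markers looked for (NEFL, NEFM, VIM, KRT8, KRT18, PAX2 and LHX1) were detected. Their summed levels were 1740 to 1810 reads per 1000000 gene reads (CPM) in the controls and 2110 to 2320 CPM in co-culture, most of it VIM. Summed markers of immune, endothelial, liver and muscle cells stayed at or below 1.96 CPM for each list in every library, with CD3E and TTR at 0 reads. The 4 fibroblast markers summed to 40 to 54.9 CPM in the controls and 45.3 to 52.7 CPM in co-culture, most of it COL1A1. DAO, the human oxidase gene, had 0 reads in all 6 libraries, which allows up to 0.0838 to 0.156 CPM by counting error and cannot speak for a transgene of another sequence. Over 5032 deeply covered genes (no library under 1000 reads), reads on the strand opposite to the gene made up a median of 0.127% and 0.216% of a gene's reads in co-culture libraries 2 and 3 and 1.59% to 1.79% in the other 4, so an estimate with this strand class as a covariate is given where it ends a call. The group difference in it comes from co-culture library 1 and the 3 controls.

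Of the 10 genes, 2 rose and 0 fell at an adjusted p under 0.05 in edgeR's quasi-likelihood test over all genes. Over all tested genes, 4.83% passed in either direction, 2.66% higher and 2.17% lower in co-culture. The pair that rose was ETV4 and SPRY4. For the 10 genes the log2 fold changes had a median of 0.23, with 7 above and 3 below 0, against a median of 0.00 over all tested genes. The CPM values of the 2 groups did not overlap for 6 of the 10 genes. These were ETV1, ETV4, ETV5, SPRY4 and DUSP4 with co-culture higher and SPRY1 with the controls higher. Over all tested genes, 14.3% had co-culture higher without overlap and 15% had the controls higher.

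**Figure D1:**
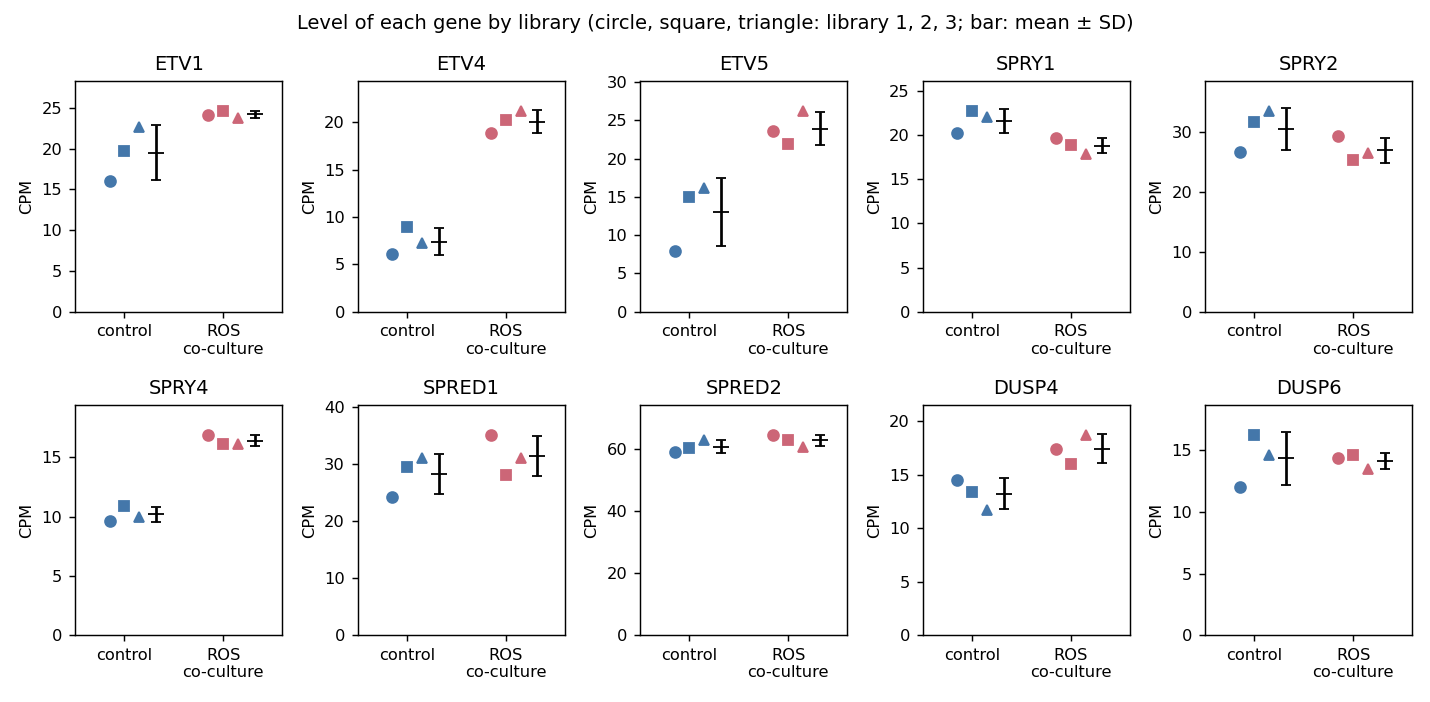
Level of each of the 10 genes in CPM (vertical axes from 0) in the 3 control libraries (blue) and the 3 ROS co-culture libraries (red), with circles, squares and triangles for libraries 1, 2 and 3 and bars for the mean ± SD. ETV4 lay between 6.11 and 8.92 CPM in the controls and between 18.9 and 21.2 CPM in co-culture, while SPRED2 and DUSP6 overlapped between the groups.

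The PEA3 factors were all higher in every co-culture library than in every control, and ETV4 was the one that passed the threshold. ETV4 stood at 6.11, 8.92 and 7.21 CPM in controls 1, 2 and 3 and at 18.9, 20.3 and 21.2 CPM in co-culture libraries 1, 2 and 3. The groups were far apart, since the lowest co-culture library held 2.11 times the level of the highest control. ETV4 rose 2.72-fold, or by 1.45 on the log2 scale (SE 0.13), from 7.41 ± 1.41 to 20.1 ± 1.18 CPM (SD, n = 3 each). By log2 fold change it had rank 11 among the 14582 tested genes. Its counts ran from 121 to 759 reads per library. The log2 fold change was 1.34 to 1.59 when any 1 library was left out and 1.35 with the strand class as a covariate, and ETV4 passed the threshold in all 14 other settings tried.

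ETV5, a paralogue of ETV4, stood at 7.88, 15 and 16.2 CPM in controls 1, 2 and 3. In co-culture it stood at 23.6, 21.9 and 26.2 CPM. The groups did not overlap, but control 1 lay far below the other controls, and the highest control was 2.05 times the lowest. The log2 fold change was 0.87 (SE 0.23), with means of 13 ± 4.48 and 23.9 ± 2.18 CPM (SD, n = 3 each), and it did not pass the threshold. Without control 1 the log2 fold change was smaller, at 0.62 (SE 0.09), and passed, in a fit in which 20.8% of all tested genes passed. With all 6 libraries ETV5 also passed in DESeq2 (0.88), in which 7.52% of all tested genes passed.

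ETV1, the third PEA3 factor, was closest between the groups. It stood at 16, 19.7 and 22.7 CPM in the controls and at 24.1, 24.6 and 23.7 CPM in co-culture. The lowest co-culture library was 1.05 times the highest control, so the groups were barely apart. The log2 fold change of 0.31 (SE 0.11) did not pass the threshold. Leaving out control 1 moved it to 0.18 and leaving out control 3 moved it to 0.44, where it passed. In that last fit 5% of all tested genes passed.

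Ratios of reads between genes of 1 library do not depend on how libraries are scaled. Because such a ratio also carries the lengths of both genes, it is read only across libraries. Reads on ETV4 per read on ETV1 were 0.382, 0.452 and 0.318 in controls 1, 2 and 3 and 0.782, 0.825 and 0.893 in co-culture libraries 1, 2 and 3, well apart. Reads on ETV4 per read on ETV5 were 0.776, 0.596 and 0.445 in the controls and 0.8, 0.928 and 0.808 in co-culture. Here control 1 came close to co-culture library 1. Of all reads on the 3 PEA3 genes, ETV4 held 15.6% to 20.5% in the controls and 28.3% to 30.4% in co-culture. The share of ETV1 was 45.2% to 53.4% in the controls and 33.4% to 36.9% in co-culture.

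**Figure D2:**
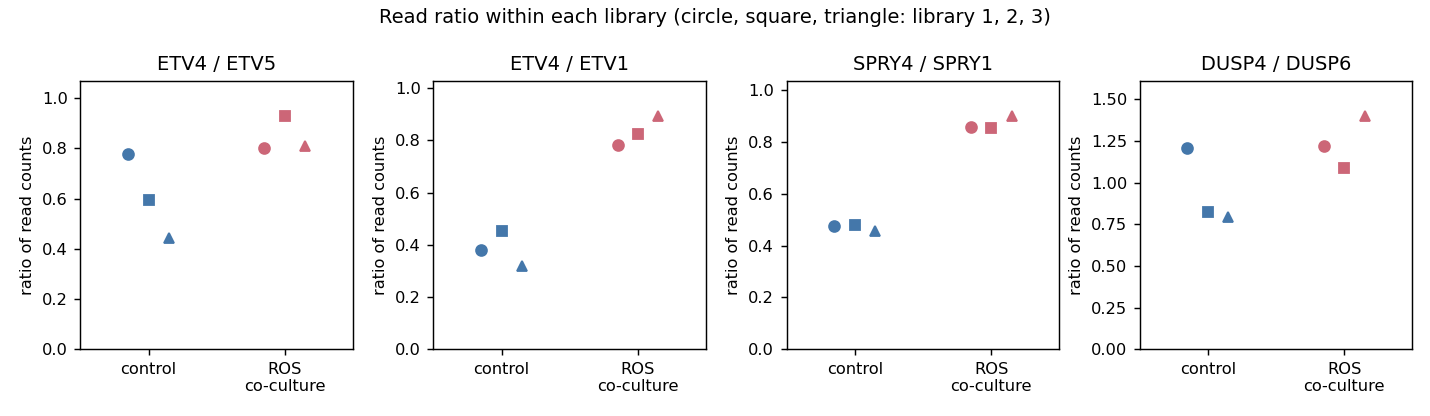
Ratio of read counts between 2 genes within each library (vertical axes from 0) for ETV4 over ETV5, ETV4 over ETV1, SPRY4 over SPRY1 and DUSP4 over DUSP6, with circles, squares and triangles for libraries 1, 2 and 3. The SPRY4 ratio lay between 0.456 and 0.479 in the controls (blue) and between 0.851 and 0.899 in co-culture (red), whereas the DUSP ratio overlapped because control 1 stood at 1.21.

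Promoter sequence is shown for the members where the letters bear on a known regulator. CIC (Capicua) is a DNA-binding repressor of the PEA3 genes and of several ERK brakes, which ERK signalling relieves. Windows of 300 bases around gene starts, from RefSeq on GRCh38.p14, were found for 7 of the 10 genes, with 16 windows in all. No window was found for ETV4, ETV5 and DUSP4. The 4 CIC octamers searched on both strands were TGAATGAA, TGAATGGA, TCAATGAA and TCAATGGA. They occurred in 1 of the 6 windows of ETV1 and in the single window of DUSP6, and in 3.77% of all 35116 windows. In the ETV1 window the match is TGAATGGA at bases -125 to -118 before the start. In the DUSP6 window TCAATGGA is read on the opposite strand, at bases -24 to -17, and a second match lies at bases 2 to 9 after the start, outside the printed stretch. The 250 bases before each start are printed 5′ to 3′ on the gene's strand, with CIC octamers in capitals. These are ETV1 at chr7:13991426-13991675 (minus strand), DUSP6 at chr12:89352502-89352751 (minus strand) and SPRY4 at chr5:142324248-142324497 (minus strand), the last because it is the gene with a window that rose.
ETV1: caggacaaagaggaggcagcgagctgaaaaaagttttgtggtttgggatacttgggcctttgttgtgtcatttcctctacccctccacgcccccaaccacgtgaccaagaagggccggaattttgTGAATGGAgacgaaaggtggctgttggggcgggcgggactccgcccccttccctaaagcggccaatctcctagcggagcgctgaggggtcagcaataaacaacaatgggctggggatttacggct
DUSP6: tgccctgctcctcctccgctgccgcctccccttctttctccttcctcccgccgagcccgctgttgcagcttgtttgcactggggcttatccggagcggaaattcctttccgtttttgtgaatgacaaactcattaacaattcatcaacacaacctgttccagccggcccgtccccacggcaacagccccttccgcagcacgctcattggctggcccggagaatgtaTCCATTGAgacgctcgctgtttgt
SPRY4: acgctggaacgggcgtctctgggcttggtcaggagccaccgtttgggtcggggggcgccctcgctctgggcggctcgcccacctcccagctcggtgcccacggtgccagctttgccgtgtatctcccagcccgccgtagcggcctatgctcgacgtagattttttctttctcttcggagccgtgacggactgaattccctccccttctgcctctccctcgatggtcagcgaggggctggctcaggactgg
The SPRY4 window also held no match to CCGGAAG (an ETS site, in 10.3% of all windows), TGACTCA (an AP-1 site, 4.95%), TGACGTCA (a CRE, 1.85%) or a CArG box (1.29%), each searched on both strands. Of the other members' windows, 1 of SPRY1 held CCGGAAG and 1 of SPRED2 held TGACTCA.

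Of the 3 Sprouty genes, 1 rose, and the other two had slightly lower mean levels in co-culture. SPRY4 stood at 9.6, 10.9 and 10 CPM in controls 1, 2 and 3 and at 16.9, 16.1 and 16.1 CPM in co-culture libraries 1, 2 and 3. The replicates of each group lay close together, and the lowest co-culture library held 1.47 times the level of the highest control. SPRY4 rose 1.61-fold, or by 0.68 on the log2 scale (SE 0.10), from 10.2 ± 0.66 to 16.4 ± 0.476 CPM (SD, n = 3 each). It passed in 13 of 14 other settings. With the strand class as a covariate its log2 fold change was 0.73 (SE 0.14) and did not pass, in a fit in which 0.199% of all tested genes passed.

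SPRY1 and SPRY2, which encode inhibitors of the same pathway, did not pass the threshold. SPRY1 stood at 20.2, 22.7 and 22 CPM in the controls and at 19.7, 18.9 and 17.9 CPM in co-culture. Every co-culture library was below every control, by a small margin, with a log2 fold change of -0.20 (SE 0.08) that did not pass the threshold. SPRY2 stood at 26.6, 31.6 and 33.4 CPM in the controls and at 29.2, 25.2 and 26.4 CPM in co-culture. Its groups overlapped, and its log2 fold change was -0.19 (SE 0.10), or -0.07 with the strand class in the model. Without control 1, SPRY1 and SPRY2 had log2 fold changes of -0.25 and -0.28 and passed the threshold as lower in co-culture, in the fit in which 20.8% of all tested genes passed.

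Within libraries, reads on SPRY4 per read on SPRY1 were 0.476, 0.479 and 0.456 in the controls and 0.858, 0.851 and 0.899 in co-culture. Per read on SPRY2 they were 0.361, 0.344 and 0.301 in the controls and 0.579, 0.638 and 0.611 in co-culture. Both ratios were higher in every co-culture library, while reads on SPRY1 per read on SPRY2 overlapped, at 0.661 to 0.757 and 0.675 to 0.749.

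SPRED1 and SPRED2, which bind the RAS inhibitor neurofibromin and bring it to the membrane, did not pass the threshold. SPRED1 stood at 24.3, 29.5 and 31 CPM in the controls and at 35.1, 28.1 and 31.1 CPM in co-culture. The groups overlapped, with co-culture library 1 highest, and the log2 fold change was 0.15 (SE 0.11). It was 0.31 with the strand class in the model and 0.05 to 0.22 with a library left out. SPRED2 stood at 58.8, 60.2 and 62.8 CPM in the controls and at 64.4, 62.6 and 60.6 CPM in co-culture. Its log2 fold change was 0.05 (SE 0.06), the smallest error of the 10 genes, at 1154 to 2171 reads per library.

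Neither phosphatase gene passed the threshold. DUSP4, a nuclear phosphatase of ERK and other MAP kinases, stood at 14.5, 13.4 and 11.7 CPM in controls 1, 2 and 3 and at 17.4, 16 and 18.7 CPM in co-culture. The groups did not overlap, the lowest co-culture library being 1.10 times the highest control. The log2 fold change of 0.41 (SE 0.11) did not pass in edgeR's test. It passed in DESeq2 (0.41), without a filter on low counts (0.41) and without control 1 (0.49). The shares of all tested genes that passed there were 7.52%, 4.5% and 20.8%.

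DUSP6, a cytoplasmic phosphatase specific for ERK, stood at 12, 16.2 and 14.6 CPM in the controls and at 14.3, 14.6 and 13.4 CPM in co-culture. The co-culture values lay inside the range of the controls. The log2 fold change was -0.02 (SE 0.12). Reads on DUSP4 per read on DUSP6 were 1.21, 0.826 and 0.796 in the controls and 1.22, 1.09 and 1.40 in co-culture, and overlapped through control 1.

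**Figure D3:**
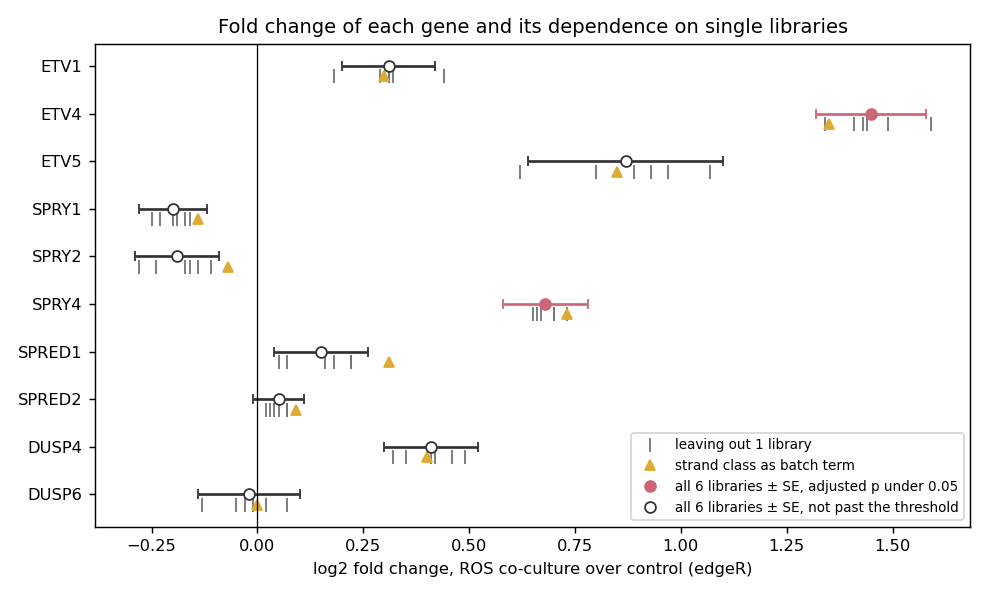
Log2 fold change of each gene, ROS co-culture over control (horizontal axis), with circles and bars for the edgeR estimate ± SE from all 6 libraries (filled where the adjusted p was under 0.05), grey ticks for fits that leave out 1 library and triangles for the estimate with the strand class in the model. ETV4 stayed between 1.34 and 1.59 and SPRY4 between 0.65 and 0.73 when a library was left out, and DUSP6 fell on both sides of 0.

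Control 1 lay at an end of the range of the controls for each of the 10 genes. It held the lowest control level of 9 of the 10 genes, all but DUSP4, for which it held the highest. Among 11647 genes with a mean of at least 5 CPM, 48.1% were lowest in control 1. Without it, 6 of the 10 genes passed the threshold (ETV4, ETV5, SPRY4 and DUSP4 higher, SPRY1 and SPRY2 lower), and so did 20.8% of all tested genes. In RNA from a bulk of cells, a change in every cell and a change in the share of cells that hold the transcript cannot be told apart.

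Other genes of the pathway were followed through lists chosen with earlier results of these data known. Of 25 tested genes of the ERK cascade, from the adaptors SHC1 and GRB2 through RAS, RAF, MEK and ERK to the RSK kinases, 0 passed edgeR's adjusted threshold, and 6 had an unadjusted p under 0.05. Over all tested genes 4.83% passed and 23.2% had an unadjusted p under 0.05, shares that also stand behind the counts of the lists that follow. The cascade's median log2 fold change was 0.05. The largest difference was that of RPS6KA2, an ERK-activated kinase, at -0.29 (SE 0.10, edgeR adjusted p 0.104, range 0.0566 to 0.407 over the other settings), or -0.17 without control 1. MAP2K1, a kinase of the cascade, had a log2 fold change of 0.08 and did not pass.

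Receptors, adaptors and other genes of the FGF family, whose receptors signal through this cascade, made up a list of 26 genes. Of these, 14 were tested, and 1 rose and 0 fell. FGFR3, a receptor, rose by 0.40 on the log2 scale, from 20.7 to 27.2 CPM (SE 0.08, edgeR adjusted p 0.0251, range 0.00293 to 0.37 over the other settings). It lost its call with the strand class (0.28) and without control 2 or any 1 co-culture library (0.35 to 0.45). FGFR1 and FGFR2 had log2 fold changes of 0.07 and -0.14, and FGFR4 and FGFRL1 had 0.31 and 0.29. FGF2, a ligand, had 0.29 (edgeR adjusted p 0.097). None of these passed in edgeR with all 6 libraries. Of the 14 tested genes, 9 had a log2 fold change above 0 and 5 below.

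The other brakes did not pass. Of 8 other MAP kinase phosphatases, 0 passed in edgeR (2 at an unadjusted p under 0.05, against 23.2% of all tested genes), with a median log2 fold change of -0.10. DUSP5, the nuclear phosphatase specific for ERK, had -0.13, and DUSP1, an immediate-early phosphatase, had -0.07. DUSP2 had the largest difference, 0.95 (SE 0.32, edgeR adjusted p 0.114), with means of 1.03 CPM in the controls and 1.91 CPM in co-culture. Of 8 tested feedback inhibitors of receptor tyrosine kinases, including SPRED3, IL17RD and ERRFI1, 0 passed in edgeR (1 at an unadjusted p under 0.05, against 23.2% of all tested genes). The largest difference was that of SOCS3, better known as an inhibitor of cytokine receptors, at 0.52 (SE 0.18, edgeR adjusted p 0.12). SPRY3, the remaining Sprouty gene, had 0 reads assigned to it in all 6 libraries. Multimapping reads are not assigned to genes, so this count cannot tell whether SPRY3 was silent.

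Of 15 other genes that ERK is known to induce, 3 rose and 1 fell in edgeR, against 4.83% called of all tested genes, and 10 had an unadjusted p under 0.05, against 23.2%. The list's median log2 fold change was 0.14. IER3, an early response gene, stood at 37.4, 30.1 and 27.3 CPM in the controls and at 62, 57.2 and 55.6 CPM in co-culture, with no overlap. It rose by 0.88 on the log2 scale (SE 0.11, edgeR adjusted p 0.0021), and it passed in all 14 other settings, with adjusted p-values up to 0.0433. FOSL1, an AP-1 subunit, and EGR3, a zinc-finger factor, rose by 1.26 and 1.45 from low levels of 2.81 and 1.3 CPM, and both lost their call with the strand class (1.16 and 1.33). Both also lost it without control 2 (1.24 and 1.55) or co-culture library 2 (1.22 and 1.40), and EGR3 also without co-culture library 1 or 3, at values within that span. EPHA4, a receptor tyrosine kinase, fell by 0.28 on the log2 scale (SE 0.07, edgeR adjusted p 0.0423, range 0.00106 to 0.321 over the other settings). With 1 library left out it kept its call only without control 1 (-0.33) and lost it in the other 5 fits (-0.25 to -0.29), as it did with the strand class (-0.30). The rest of the list did not pass. MAFF, LIF, EPHA2 and HBEGF had 0.90, 0.66, 0.35 and 0.33, CCND1 and ETS2 had 0.14 each, and EGR1 had 0.09. FOS, PHLDA1, MYC and VGF had -0.23, -0.28, -0.33 and -0.54. MAFF and VGF were at low levels, with control means of 1.94 and 0.583 CPM. Of the 15 genes, 10 had a log2 fold change above 0 and 5 below.

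Regulators of the PEA3 genes or proteins, listed with partners of these regulators, gave 1 call among 9 tested genes. An unadjusted p under 0.05 in edgeR was found for 2. Over all tested genes the shares were 4.83% and 23.2%. TRIB1, a pseudokinase that serves as an adaptor of the COP1 ubiquitin ligase, stood at 15.6, 13.9 and 14.3 CPM in the controls and at 25.8, 24.3 and 23.3 CPM in co-culture. The groups were well apart. TRIB1 rose by 0.74 on the log2 scale (SE 0.09, edgeR adjusted p 0.00171), and it passed in all 14 other settings, with adjusted p-values up to 0.0416. COP1, which targets PEA3 proteins for degradation and is counted in the files under its older name RFWD2, had -0.09. CIC had -0.13 and its partners ATXN1 and ATXN1L had -0.13 and -0.15, none past the threshold.

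Of 17 other tested ETS factors, 0 passed in edgeR (4 at an unadjusted p under 0.05, against 23.2% of all tested genes), with a median log2 fold change of 0.09. SPIB had the largest difference, 0.82 (SE 0.31, edgeR adjusted p 0.14), with means of 0.629 CPM in the controls and 1.1 CPM in co-culture. ELK1 and ELK4, which ERK phosphorylates directly, had -0.14 and 0.12. ETS1 and ETS2 had -0.13 and 0.14.

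**Figure D4:**
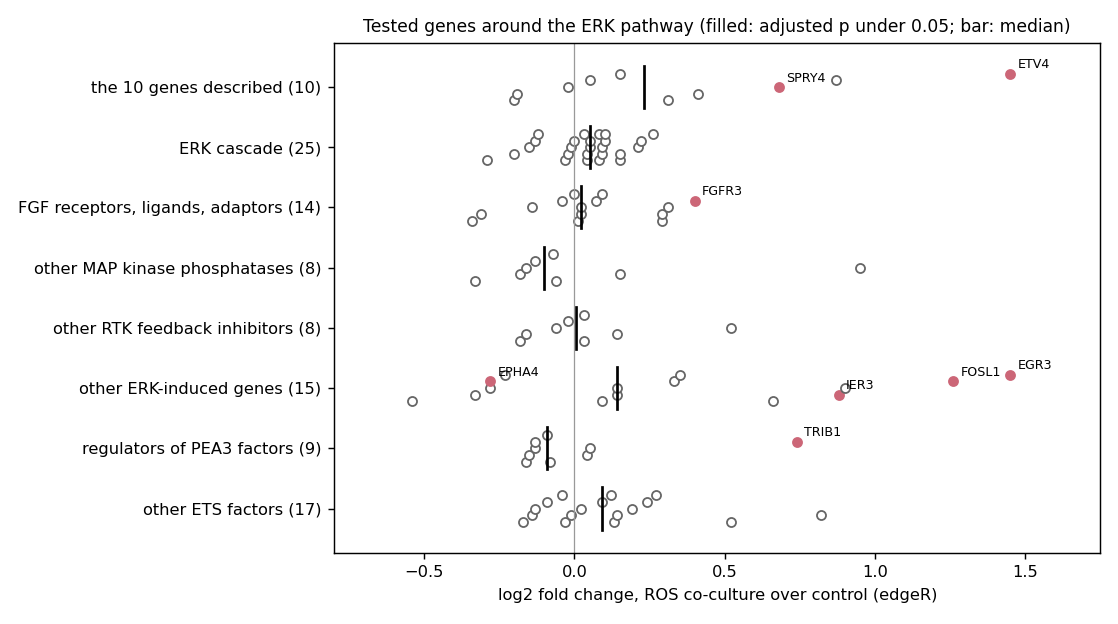
Log2 fold change, ROS co-culture over control (horizontal axis), of each tested gene in the 10-gene set and in 7 lists of related genes, with the number tested in brackets, filled circles for an adjusted p under 0.05 in edgeR and a black bar for the median. The filled circles are ETV4 and SPRY4 in the set and FGFR3, EPHA4, IER3, FOSL1, EGR3 and TRIB1 in the lists, and all tested genes of the ERK cascade lie between -0.29 and 0.26.

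Among the genes whose levels followed ETV4 most closely over the 6 libraries were PDLIM3, RPL36A, SLC2A4RG and VIM, outside the 10 genes and at a mean of at least 5 CPM. Their Pearson r with ETV4 on log2(CPM + 1) ran from 0.995 to 0.998, a description over 6 libraries that fall into the same 2 groups. RPL36A belongs to a gene family with near-identical copies, so its reads are uncertain. Their fold changes were smaller than that of ETV4. With all 6 libraries PDLIM3, RPL36A and VIM passed the threshold in edgeR, and SLC2A4RG did not. With the strand class as a covariate PDLIM3, RPL36A and VIM lost their call, at log2 fold changes of 0.33, 0.60 and 0.38. VIM, which encodes the filament protein vimentin, was at 924 to 998 CPM in the controls and 1260 to 1320 CPM in co-culture. Among the 10 genes, SPRY4 followed ETV4 most closely (r = 0.989) and DUSP6 hardly at all (0.131), over the same 6 libraries.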

How the data were processed

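RNA of 6 libraries was measured as reads per gene. Per the submitters' processing notes, the authors used FastQC, STAR 2.53a and the build hg18. The annotation is not given in the sources used here. The deposited values are raw counts: whole numbers whose totals differ between libraries, with separate columns for either strand. Libraries were made with a stranded kit, per the labels' protocols, and the column of reverse-strand reads, by far the larger of the 2, was analysed. Summary lines stayed out of library sizes; multimapping reads were 6.48% to 8.42% and reads in no gene 14.8% to 17.7% of the total.

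Group was the only term in edgeR 4.0.16 (R 4.3.3): filterByExpr with a minimum count of 10, TMM scaling, robust quasi-likelihood F test, and Benjamini-Hochberg adjustment over 14582 genes at 0.05. CPM are TMM-scaled over all gene reads, and 1 read was worth 0.0279 to 0.0521 CPM. CPM are not per length, so levels are not compared between genes. The SE is the absolute log2 fold change over the square root of F. The test was checked on counts simulated from its own fitted means and dispersions. That simulation held neither the strand class nor a control that stands apart, so it cannot speak for their effect on the calls. Alternatives were DESeq2 1.42.0, limma-voom (limma 3.58.1), other scaling, no filter, unstranded counts, a replicate block, the strand class, and each library left out. Pairs of replicates differed beyond sampling noise (chi-square per degree of freedom 4.56 to 17.7).

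The members and lists were chosen with earlier results of these data known. Named genes were the members, up to 4 called genes per direction and list (the largest difference where none passed), and the 5 genes most like ETV4, of which 1 is not reported here. Others given from the lists were picked for their role or their value after values were seen.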

Additional observations from a re-analysis of the deposited data

Results flagged for a closer look

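Reads on the forward strand over ETV4, opposite to the strand counted, were 17 in the 3 co-culture libraries together and 7 in the controls. They are given because every co-culture library was above every control per 1000000 forward-strand reads, at 3.95, 12.1 and 3.84 against 2.35, 3.82 and 1.76. As a share of the reads over ETV4 they were 1.05%, 2.06% and 0.524% in co-culture and 1.63%, 1.72% and 1.05% in the controls, and the groups overlapped. The counts are too few for a statement on antisense transcription.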

How the results depend on the processing

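Of 140 results for the 10 genes (14 other settings each), 129 kept their direction and their side of the threshold. ETV4, IER3 and TRIB1 passed in all settings. The number of the 10 genes called was 2, but 4 in DESeq2, 3 without a filter on low counts and 1 with the strand class. It was 2 to 6 when a library was left out. DUSP6 ran from -0.13 to 0.07 over the fits without 1 library, above 0 without control 2 (0.07) and co-culture library 3 (0.02). The count over all genes, 704, became 29 with the strand class and 65 to 3069 with a library left out: 3069 without control 1, 65 without control 2, and 123, 74 and 321 without co-culture libraries 1, 2 and 3. With a library left out, calls were 0 to 5 in the ERK cascade, 0 to 5 in the FGF list, 1 to 10 of the ERK-induced genes, 0 to 3 of the other ETS factors, 0 to 3 of the other phosphatases, 0 to 1 of the feedback inhibitors and 1 to 3 of the PEA3 regulators. Total-count scaling gave 1 call in the ERK cascade, and DESeq2 and unstranded counts gave 1 of the other ETS factors each. The strand class left 0 in the FGF list and 1 of the ERK-induced genes. The causes were not tested. The titles do not say whether same-numbered libraries were paired. Their deviations from the group means had correlations of -0.06, -0.13 and -0.14, against 0 to 0.12 for differently numbered libraries. With deviations taken within groups of 3 libraries, these values cannot decide it. With the replicate block 164 genes passed, with 2 of the 10 genes called, 0 in the FGF list and 2 of the ERK-induced genes.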
